A study of Rattus norvegicus with 15 samples.

Results

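The genes described here are Trpm5, Plcb2, Gnat3, Gnb3, Gng13, Chat, Itpr3 and Ascl3, which are used to recognise microvillar cells and solitary chemosensory cells of the nose. They were chosen by name: every probe of the array, control spots left out, that carried one of these gene names was taken. Of the 8 genes, 7 had a probe, with 8 probes in all among 41012 on the array, because Itpr3 had 2. No probe was named for Gng13, the partner subunit of Gnb3 in taste cells, and this gene was not analysed here.

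The RNA came from the olfactory epithelium of Brown Norway rats aged 6 weeks, none of them given an odorant to smell. There were 4 males (rats 1, 2, 5 and 6) and 4 females (rats 3, 4, 7 and 8), hybridised to 15 single-colour arrays, with nostrils A and B of each rat on separate arrays except for male 1, from which only nostril A was used. The labels do not name the side of each nostril, but the sample left out for its RNA quality is described as a left one, which would make B the left side. They do not give the supplier of each rat, and the study's methods give it for the rat with the missing sample only. All rats were untreated, so the comparisons are between the sexes, between the nostrils and between single rats.

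The olfactory epithelium holds, beside its sensory neurons and supporting cells, sparse cells that carry a tuft of microvilli. One kind carries the cation channel Trpm5. Solitary chemosensory cells of the respiratory lining use the signalling chain of sweet, bitter and umami taste. In this chain a receptor releases gustducin (Gnat3) with a beta and a gamma subunit (Gnb3, Gng13). Phospholipase C beta 2 (Plcb2) makes inositol trisphosphate, the type 3 receptor for it (Itpr3) lets calcium out of the store, and Trpm5 opens. Many Trpm5 cells of the nose make choline acetyltransferase (Chat), the enzyme of acetylcholine synthesis. Ascl3, a transcription factor, belongs to another kind of microvillar cell, which resembles the ionocytes of the airway. In whole tissue, fewer cells of a type and less RNA per cell cannot be told apart.

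Each array reads a gene through a probe of 60 bases, and the probes of 5 genes are shown because the results below rest on what these stretches catch. They are written 5′ to 3′ as the array design gives them. The capitals mark the 40 bases that both Itpr3 probes share, so that these are readings of nearly one place and not of separate transcripts.
Trpm5, A_44_P375125: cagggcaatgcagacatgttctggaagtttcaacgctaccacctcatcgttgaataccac
Plcb2, A_44_P165543: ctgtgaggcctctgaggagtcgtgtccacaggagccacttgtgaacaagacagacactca
Gnb3, A_43_P12137: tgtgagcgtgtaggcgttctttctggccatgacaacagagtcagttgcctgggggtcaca
Itpr3, A_44_P288187: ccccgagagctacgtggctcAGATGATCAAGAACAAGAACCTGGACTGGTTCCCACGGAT
Itpr3, A_44_P288185: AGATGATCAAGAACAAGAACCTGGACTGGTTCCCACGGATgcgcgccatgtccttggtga
Ascl3, A_44_P449745: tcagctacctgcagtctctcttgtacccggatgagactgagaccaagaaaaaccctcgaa

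In the rn3 build that the array files use, the Trpm5 probe lies at chr1:203503018-203503077, the Ascl3 probe at chr1:167456225-167456284 and the Plcb2 probe at chr3:105100322-105100381, each on the minus strand. The Gnat3 probe lies at chr4:12785440-12785500 and the Chat probe at chr16:7952407-7952466, both on the minus strand. The Gnb3 probe spans 944 bases of the minus strand at chr4:161202942-161203885, and the Itpr3 probes span 924 bases each of the plus strand, at chr20:5355645-5356568 and chr20:5355665-5356588. A span this much longer than the probe means that the probe joins separate exons. The files do not say which exon or untranslated region a probe lies in.

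The scanner software scored between 26233 and 28741 probes per array as well above background. The array medians ran from 57.4 to 83.4 signal units, and every level below is the log2 of the signal over its array's median, so that 0 is the level of the median probe. Levels are not compared between probes, which bind with different strength. The arrays lay on 4 slides: male 1, male 2 and female 3A on slide 1, female 3B and female 4 on slide 2, males 5 and 6 on slide 3, and females 7 and 8 on slide 4. Both sexes were present on slide 1 only. No arrays held identical values.

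Of the 7 genes with a probe, 6 were detected in every one of the 15 samples, through 7 probes: Trpm5, Plcb2, Gnat3, Gnb3, Itpr3 and Ascl3. A probe was called expressed when it was well above background on at least 11 arrays, which 65.1% of all probes reached. Chat was the exception. Its probe was well above background on 1 array, that of female 4B, where the signal was 16.2 units, and on 6 arrays it lay at the floor of 0.1 of the median. It was positive and distinguishable from local background on 14 arrays, by the more lenient of the scanner's criteria. Chat was therefore left out of the comparisons below, and was tested only where the filter on detection was dropped.

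The signals of the detected probes differed in how far they rose above the dimmest signal that their array scored as well above background. Ascl3 was 234 to 373 times that limit. The 2 Itpr3 probes were 60.0 to 98.3 times (A_44_P288185) and 54.7 to 88.4 times (A_44_P288187) above it, Gnb3 7.67 to 14.9 times, Trpm5 7.39 to 13.3 times and Gnat3 4.58 to 8.60 times. Plcb2 was the dimmest against this limit, at 1.61 to 4.73 times. No probe was saturated.

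**Figure D1:**
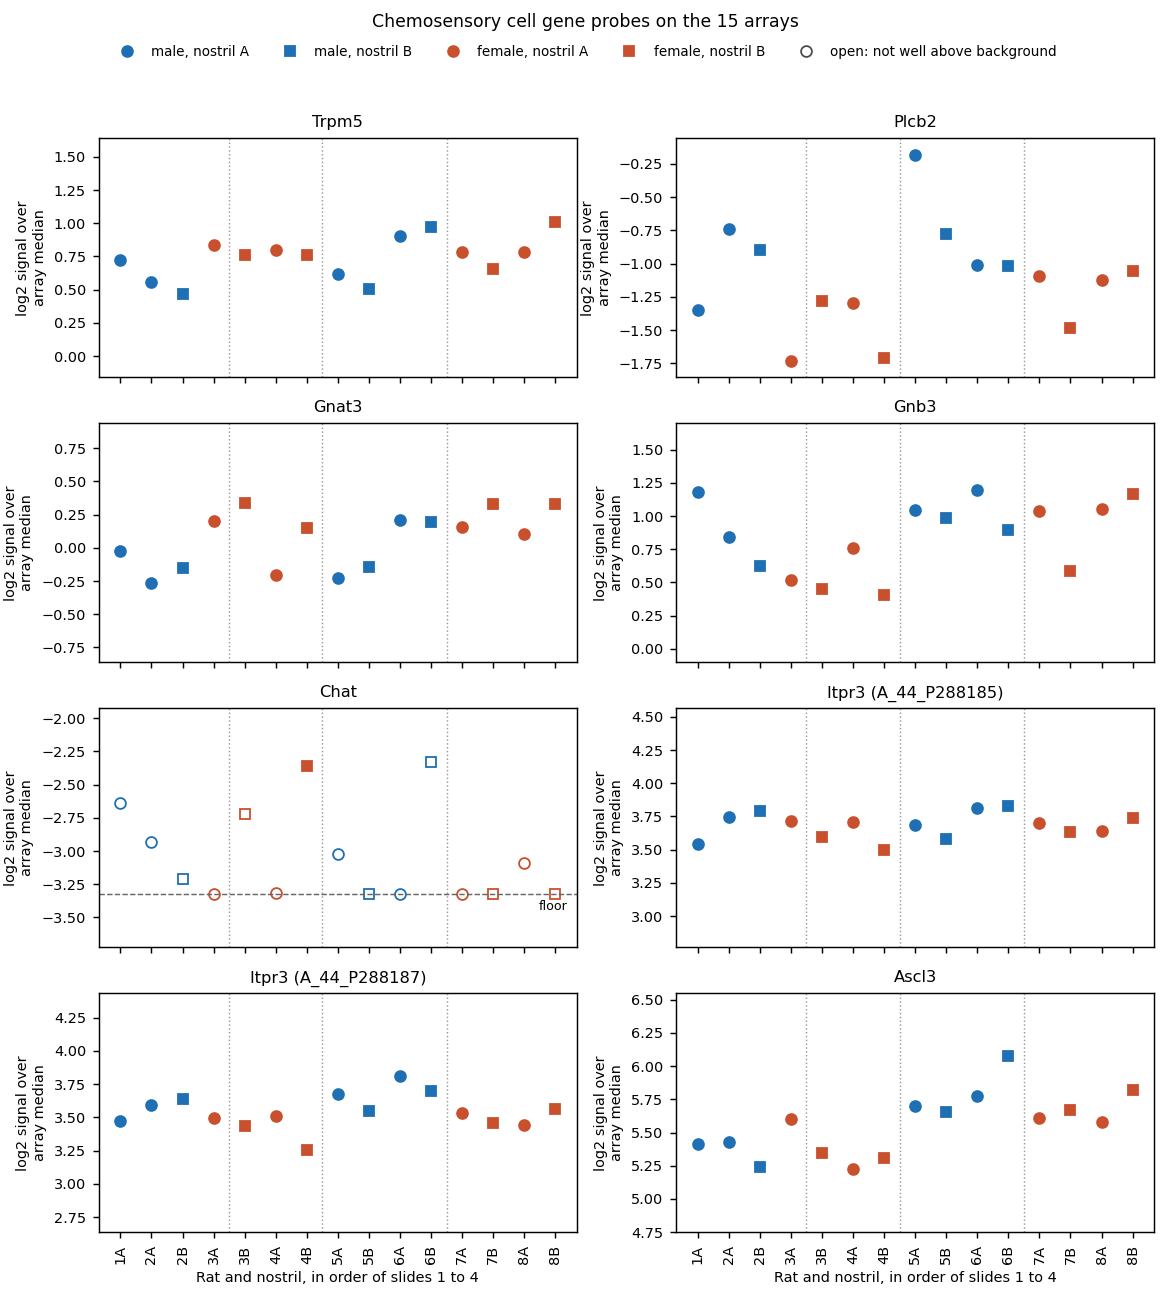
Log2 signal over the array median (y axis, of the same span in each panel) of the 8 probes on the 15 arrays, in order of slide, with dotted lines between slides; circles are nostril A, squares nostril B, blue males, orange females, and open symbols readings not well above background. Ascl3 stands higher on slides 3 and 4 than on 1 and 2, Itpr3 by A_44_P288185 stays within the narrowest band, and most Chat readings are open.

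Over the 15 arrays the range of a member probe had a median of 0.60 log2 units, beside 0.63 over all probes tested. The signal-chain channel Trpm5 ran from 0.47 (male 2B) over a median of 0.76 to 1.01 (female 8B), a 1.46-fold span. Itpr3, the calcium release channel, spanned 1.26-fold by A_44_P288185, from 3.50 to 3.83, and 1.47-fold by A_44_P288187, from 3.26 to 3.81. Its 2 probes correlated with r = 0.81 over the 15 arrays, which are also the readings of 1 place, and they shared their lowest array, female 4B.

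Among the G protein subunits, Gnat3 ran from -0.26 (male 2A) to 0.34 (female 3B), a 1.52-fold span, and Gnb3 from 0.40 (female 4B) to 1.19 (male 6A), a 1.73-fold span. Ascl3 ran from 5.22 (female 4A) to 6.07 (male 6B), a 1.80-fold span. Plcb2, the phospholipase, spread most, from -1.73 (female 3A) to -0.18 (male 5A), a 2.93-fold span. Averaged per rat, the range over the 8 rats was between 0.28 and 1.03 log2 units for the 7 probes, with a median of 0.48, and the median over the 27574 probes with a value on every array was 0.47.

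The comparison of the sexes asked whether these genes differ between male and female epithelium. None of the 7 probes passed a false discovery rate of 1% (limma on the means of the 8 rats), where 12 of 27625 probes passed (0.0434%). Of the members, 1 had an unadjusted p under 0.05.

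That probe was Plcb2. Its rat means were -1.35, -0.82, -0.48 and -1.01 in males 1, 2, 5 and 6, and -1.51, -1.50, -1.29 and -1.09 in females 3, 4, 7 and 8. The lowest male lay among the females, so the sexes overlapped. Females were lower by a log2 difference of -0.43 (SE 0.19, 95% interval -0.86 to -0.01, n = 4 and 4), or 0.74-fold, with a limma p of 0.046 that became 0.28 after adjustment. Without male 5, the rat with the highest Plcb2, the difference was -0.29, without male 1 it was -0.58 and without female 8 -0.52. With slide as a fixed block it was -0.75, which rests mostly on slide 1 and its single female array. Within slide 1 alone it was -0.74. With a normexp background correction it was -0.14.

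Plcb2 is also made by white blood cells. The summed level of the leukocyte and mast cell probes that were expressed (5 of 8, in multiples of the array median) was 72.6, 103, 107 and 98.1 in males 1, 2, 5 and 6, and 76.5, 83.8, 77.6 and 67.7 in females 3, 4, 7 and 8. The sum is on a linear scale and rests mostly on the brightest probes, Lyz (median log2 level 5.88) and then Cd68 (4.07), so it is not an even measure of these cells. The 4 males had the same order in this sum and in Plcb2, from male 1 over males 6 and 2 to male 5. Among the females the order was not shared: female 8 had the lowest sum and the highest Plcb2. Of the 6 tested probes of this list, 5 had a female minus male difference below 0, as Plcb2 had, from -1.26 (Cd79b, of B cells) to -0.19 (a Ptprc probe), and Cpa3, of mast cells, had 0.36 (limma adjusted p of 0.19 to 0.59 for the 6). The median of the list was -0.32, beside 0.01 over all probes tested. Cd68, Cd79b, Lyz and Cpa3 were well above background on all 15 arrays, the 3 probes of Ptprc, the common leukocyte antigen, on 14, 7 and 0, and Cd3e, of T cells, on 2. The part of these cells in the Plcb2 levels was not tested.

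Gnat3 averaged -0.02, -0.21, -0.18 and 0.20 in males 1, 2, 5 and 6, and 0.27, -0.03, 0.24 and 0.22 in females 3, 4, 7 and 8. Female 4 lay below male 6, so the sexes overlapped here too. The female minus male difference was 0.23 (SE 0.12, limma adjusted p = 0.36), with 0.15 under normexp and 0.31 without male 6.

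Gnb3 averaged 1.18, 0.73, 1.02 and 1.04 in the males and 0.49, 0.58, 0.81 and 1.11 in the females, in the same order of rats, a female minus male difference of -0.25 (SE 0.15, limma adjusted p = 0.42). It was -0.16 without female 3 and also with normexp, and -0.37 without female 8. Trpm5 averaged 0.73, 0.51, 0.56 and 0.94 in the males and 0.80, 0.78, 0.72 and 0.90 in the females, a difference of 0.11 (SE 0.11, limma adjusted p = 0.61). This difference moved with single rats, to 0.06 without male 2, 0.07 without male 5 and 0.20 without male 6, and was 0.25 with slide as a fixed block. The female values lay inside the male range for Trpm5, with an SD of 0.07 against 0.19.

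Itpr3 differed between females and males by -0.04 by A_44_P288185 and by -0.15 by A_44_P288187, and Ascl3 by -0.07 (limma adjusted p = 0.83, 0.31 and 0.84). With slide as a fixed block A_44_P288187 stood at -0.07. For A_44_P288185 and Ascl3, the sign itself turned when male 6 was left out, and for Ascl3 also without female 4. The 95% intervals of the probes other than Plcb2 lay between -0.58 and 0.50, the outer bounds being those of Gnb3 and Gnat3. A p that misses the threshold does not show that the sexes are alike, and these intervals give the sizes that remained possible. No member probe had rat means that separated the sexes without overlap, as 11.3% of all tested probes did. The median female minus male difference was -0.07 over the 7 probes and 0.01 over all probes tested.

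**Figure D2:**
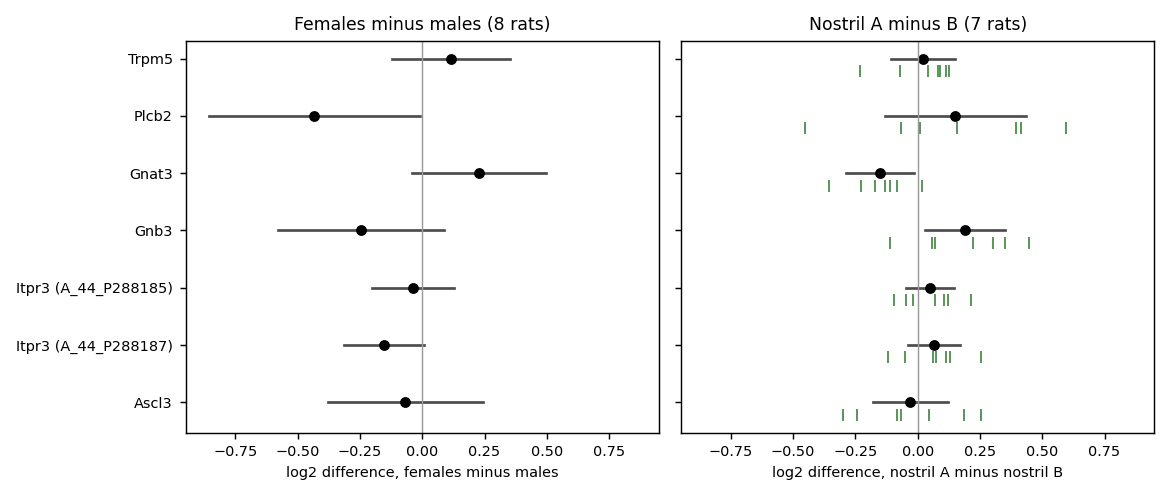
Log2 differences of the 7 detected probes, females minus males over 8 rats (left) and nostril A minus B over 7 rats (right). Points are the fitted differences and bars their 95% intervals, and green ticks, in the right panel only, are the single rats. Plcb2 has the widest interval in both panels, and no probe passed the false discovery rate of 1%.

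Within slide 1, where 3 male arrays and female 3A lay together, the female array was lower for Plcb2 (-1.73 against -1.35 to -0.74 in the males) and lower for Gnb3 (0.52 against 0.62 to 1.18). It was higher for Gnat3 (0.21 against -0.26 to -0.02), for Trpm5 (0.84 against 0.47 to 0.73) and for Ascl3 (5.60 against 5.24 to 5.43). The Itpr3 probes lay within the male values. For Ascl3 this direction was the opposite of that over all rats.

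The nostrils of 7 rats could be compared within the animal. No member probe passed 1%, and neither did any of the 27574 probes tested (0%). At an unadjusted limma p under 0.05, 2 members stood out, beside 1623 probes or 5.89% of all: Gnb3 and Gnat3, which code for subunits of one G protein, in opposite directions. Gnb3 was higher in nostril A in 6 of 7 rats, by a mean of 0.19 (SE 0.07, adjusted p = 0.78), with differences of 0.22, 0.06 and 0.30 in males 2, 5 and 6 and of 0.07, 0.35, 0.45 and -0.11 in females 3, 4, 7 and 8. Gnat3 was lower in nostril A in 6 of 7 rats, by a mean of -0.15 (SE 0.06, adjusted p = 0.78), with differences of -0.11, -0.08 and 0.02 in the males and -0.13, -0.36, -0.17 and -0.23 in the females.

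The nostril difference was 0.02 for Trpm5, 0.15 for Plcb2, 0.05 and 0.07 for the Itpr3 probes and -0.03 for Ascl3 (limma adjusted p of 0.795 to 0.954). These differences moved when single rats were left out. That of Plcb2 was 0.08 without male 5 and 0.25 without female 3, those of the Itpr3 probes were 0.02 and 0.04 without female 4, and that of Trpm5 ran from 0.0035 without female 7 to 0.06 without female 8. That of Ascl3 turned in sign without male 6 or female 8. With normexp the Gnat3 difference was -0.07 and the Itpr3 differences were both 0.14. The largest gap between the nostrils of one rat was 0.60 for Plcb2 (male 5), and for the other detected probes it was 0.21 to 0.45. Whether the nostrils differed more in one sex was tested as an interaction, and no member probe passed (limma adjusted p = 1.00 for each).

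The comparison of single rats asked whether rats of one sex differ by more than the nostrils of a rat do. By limma's F test, 768 of 27574 probes passed 1% (2.79%), none of them a member. At 5%, where 4442 probes passed (16.1%), 1 of the 7 member probes did, that of Ascl3 (F = 6.98, adjusted p = 0.033). Without male 2, female 4, male 6 or female 7 it did not (limma adjusted p of 0.052 to 0.076). The F values of the other member probes were 3.95 for Trpm5, 3.66 for Gnb3, 2.85 for Gnat3, 2.33 for Plcb2, and 1.97 and 1.44 for the Itpr3 probes (adjusted p of 0.093 to 0.40). Without male 6, F was 1.18 for Trpm5, 1.35 for Gnat3 and 0.79 for Itpr3 (A_44_P288187). For Gnb3 it was 1.79 without female 8 and 5.75 without female 7. With slide as a block, where only rats of a shared slide are compared, the F of Gnb3 was 1.89. With normexp it was 0.65 to 2.18 for these 6 probes. The median F was 2.85 over the members and 2.37 over all probes tested, so the members' share and spread were near those of the array as a whole.

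Ascl3 averaged 5.41, 5.34, 5.68 and 5.92 in males 1, 2, 5 and 6, and 5.47, 5.27, 5.64 and 5.70 in females 3, 4, 7 and 8. From lowest to highest the order was rats 4, 2, 1, 3, 7, 5, 8 and 6, and 5 of the 7 steps between neighbours were smaller than the spread between nostrils of a rat (SD 0.14). The steps that exceeded it were that of 0.17 from rat 3 to rat 7 and that of 0.22 from rat 8 to rat 6. Rats 1 to 4, which lay on slides 1 and 2, were all below rats 5 to 8, on slides 3 and 4, and the means of these groups differed by 0.36, or 1.29-fold. Of all tested probes, 11.3% separated the same rats without overlap. No other detected member did.

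With slide as a fixed block, F was 1.42 for Ascl3 (limma adjusted p = 0.56). That fit compares only rats of a shared slide, so it tests other differences than the F of 6.98 over all rats of 1 sex. With a normexp background correction the latter F was 1.81 (limma adjusted p = 0.85). Slide and rat can be told apart only between rats of 1 slide. Female 3, the rat whose nostrils lay on different slides, had 5.60 on slide 1 and 5.35 on slide 2. The part of the slide in the Ascl3 levels was not tested further, and whether the slides and the suppliers of the rats coincide is not given.

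The rats on the same slide were compared in the fit with slide as a block, where female 3, whose nostril A lay on slide 1, is set against female 4 by nostril B alone. Male 6 was above male 5 in Trpm5 by 0.37, in Gnat3 by 0.39, in Ascl3 by 0.24 and in the Itpr3 probes by 0.19 and 0.14, and below male 5 in Plcb2 by a log2 difference of -0.53. Male 2 minus male 1 was 0.53 in Plcb2, -0.45 in Gnb3, -0.19 in Gnat3, 0.23 and 0.14 in the Itpr3 probes and -0.07 in Ascl3. Female 4 minus female 3B was -0.37 in Gnat3 and -0.22 in Plcb2, and female 8 minus female 7 was 0.30 in Gnb3 and 0.20 in Plcb2, with the other members within 0.18 of 0. None of these passed after adjustment over all probes (limma adjusted p of 0.319 or more). Over all slide pairs, 1 of the 7 member probes, Trpm5, had an unadjusted p under 0.05 (limma adjusted p = 0.23), beside 17.1% of all probes, and no member passed 1%, where 1 probe in all did (0.00363%). The Trpm5 difference was -0.22 for male 2 minus male 1, 0.02 for female 4 minus female 3B and 0.18 for female 8 minus female 7. The Trpm5 and Plcb2 differences had opposite signs in 3 of the 4 slide pairs and the same sign between females 7 and 8.

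For Trpm5 the rats ran in the order 2, 5, 7, 1, 4, 3, 8 and 6, and 5 of 7 steps were smaller than the spread between nostrils (SD 0.09). For Gnat3, males 2 and 5 were lowest and female 3 highest. Between neighbours in the order of rats, 5 or 6 of 7 steps were below the nostril spread for each of the 7 probes.

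Whether the genes of the signalling chain moved together from rat to rat was examined over the 15 pairs of the 6 detected genes, with the brighter Itpr3 probe. In 11 pairs r was above 0. No pair passed 5% after adjustment over the 15 pairs in an exact two-sided permutation test over all 40320 pairings of the 8 rats, and 1 had an unadjusted p under 0.05. This was Trpm5 with Gnat3, the channel and the G protein subunit of one chain, with r = 0.81 (exact permutation p = 0.016, adjusted 0.24) and Spearman's rho = 0.60 (exact permutation p = 0.13, adjusted 0.58). Without the 2 rats farthest from the median of Trpm5, r was 0.37 over the 6 rats left, which cover less of the Trpm5 range.

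Plcb2, the enzyme between them in the chain, ran against both, with r = -0.51 to Trpm5 (exact permutation p = 0.19, adjusted 0.53) and r = -0.57 to Gnat3 (exact permutation p = 0.14, adjusted 0.53). Without the 2 rats farthest from the median these were 0.71 and 0.36, with the sign turned. Spearman's rho was -0.38 and -0.60 (exact permutation p = 0.36 and 0.13, adjusted 0.58 for both). Ascl3 had r between 0.40 and 0.54 to each of the other 5 genes, none past 5% (adjusted exact permutation p of 0.53 to 0.55). Without the 2 rats farthest from the median of the other gene, these values spread out, to 0.91 with Plcb2, 0.70 with Trpm5, 0.65 with Gnat3, 0.30 with Gnb3 and -0.09 with Itpr3.

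With slide means taken out, r was 0.79 for Trpm5 with Gnat3, 0.91 for Trpm5 with Ascl3 and 0.94 for Gnat3 with Ascl3, while Plcb2 stood at -0.78, -0.81 and -0.79 to these 3 genes. Removing slide means leaves the rats of a slide as near mirror images of each other, so these are fewer than 8 independent points and male 5 against male 6 weighs most. Of the 15 pairs, 12 kept the sign of r.

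**Figure D3:**
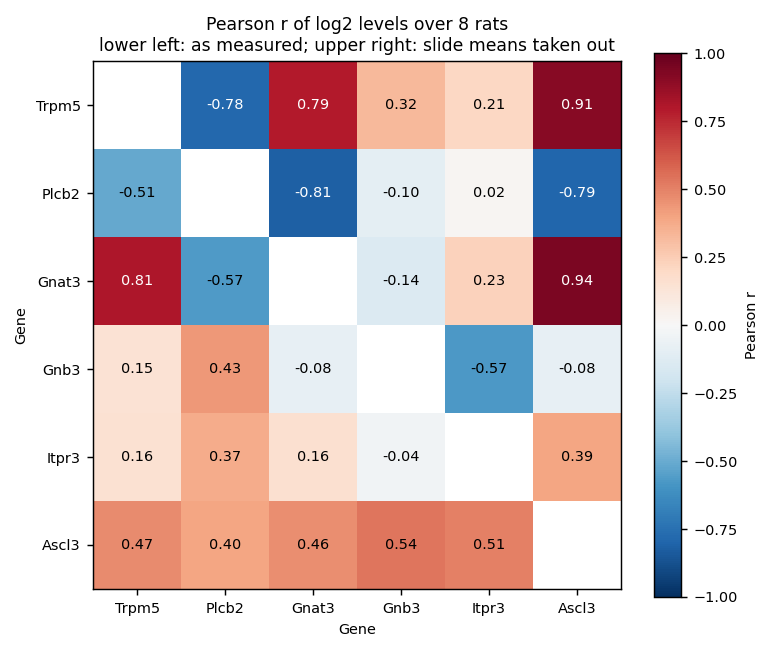
Pearson r between the log2 levels of the 6 detected genes over the 8 rat means, as measured (lower left) and with slide means taken out (upper right); colour runs from blue at -1 to red at 1. Trpm5 and Gnat3 are the highest pair as measured, at 0.81, and Plcb2 is negative to both.

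The probes of other named genes whose levels were most like those of a member were found by Pearson's r over the 15 arrays, among 12871 probes of named genes. These arrays share rats and slides, and the highest of so many values of r is high by choice, so they are given as a description. For Trpm5 they were Plekhh1 (r = 0.92), Tiprl (0.87) and Slc26a8 (0.87). For Gnat3 they were Chst9 (0.88), Rbks (0.87) and Abcc12 (0.84), and for Gnb3 Znf142 (0.90), Dusp4 (0.90) and Zfp692 (0.89). With slide means taken out these 9 values were between 0.80 and 0.95.

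For Plcb2 the most alike were Nid1 (r = 0.93), which codes for a basement membrane protein, Plxnd1 (0.93), a semaphorin receptor of blood vessels, and Gpr77 (0.92), a complement C5a receptor. For Itpr3, Slc27a1 (0.80) and Gdf1 (0.77) were among them. Ascl3 had the highest values, with Ndor1 (0.97), Dguok (0.96) and Ezh1 (0.95), which were 0.90, 0.87 and 0.81 with slide means taken out. No gene of the chain was among the 3 most alike of another.

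Other genes of tuft and brush cells, as chemosensory cells with microvilli are called in other organs, were present in the same samples. Of 13 such genes with a probe by name, 11 were expressed, through 12 of 15 probes, beside 65.1% of all probes. Which cells of the tissue made these transcripts was not tested. Pou2f3, the transcription factor that Trpm5 cells need, was detected on all 15 arrays by A_44_P269280 (log2 level 3.16 to 3.71) and on 4 by A_44_P311351. Gfi1b, another transcription factor of tuft cells, ran from 0.52 to 1.27, Avil, which codes for the actin-binding advillin, from 0.71 to 1.41, and Dcamkl1, a doublecortin-like kinase used as a tuft cell marker, from 2.97 to 3.77 and from 0.01 to 0.80 by its 2 probes. The genes of this list below the limit, named after their values were seen, were Il17rb, detected on 6 arrays, and Trpc6, on 0.

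None of the 12 tested probes of this list passed 1% by sex, by nostril or between rats. Their median female minus male difference was -0.07, beside 0.01 over all probes tested, and their median F between rats was 4.33, beside 2.37.

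The ionocyte genes, which go with Ascl3, were all detected by at least 1 probe, and 6 of their 7 probes were expressed, beside 65.1% of all probes. Foxi1, the transcription factor of ionocytes, ran from 0.64 to 1.29, the chloride channel Cftr from 0.65 to 1.27 by A_44_P172901 (its other probe was detected on 4 arrays), and the proton pump subunit Atp6v1b1 from 2.68 to 3.30. None of the 6 tested probes passed 1% in any comparison. Foxi1 had an F of 2.17 between rats (limma adjusted p = 0.24), where Ascl3 had 6.98.

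Of the type 1 taste receptors, Tas1r1 was well above background on 12 arrays (-2.09 to -1.34), Tas1r2 on 2 and Tas1r3, the subunit shared by the sweet and umami receptors, on 0. Around acetylcholine, the vesicular transporter Slc18a3 and the choline transporter Slc5a7, which cells that store and reuse acetylcholine carry, were well above background on 0 of 15 arrays, as Chat was on 1. Of the 10 genes of the cholinergic list, 4 were expressed: the esterase Ache, the muscarinic receptor Chrm3, and the nicotinic subunits Chrna7 and Chrnb2. This was through 5 of 15 probes, beside 65.1% of all probes. The 3 Chrna7 probes disagreed, at 15, 1 and 0 arrays. By the first of these, A_43_P16274, rat means ran from 2.45 to 3.84, and the probe passed 1% between rats (F = 60.8, limma adjusted p = 0.00024). It did not pass in the fit with slide as a block, which compares only rats of a shared slide (limma adjusted p = 0.078).

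**Figure D4:**
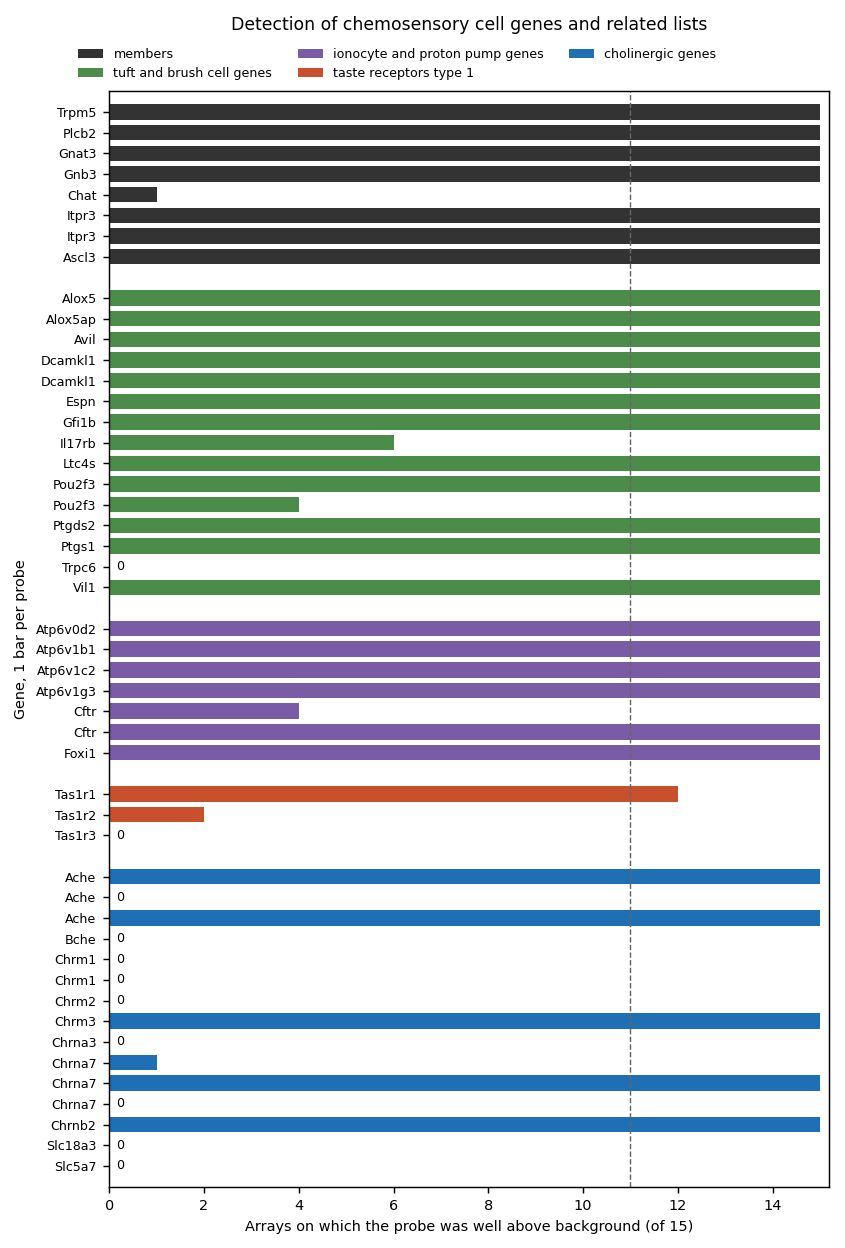
Number of arrays, of 15, on which each probe was well above background (x axis), with 1 bar per probe, for the members and 4 related lists; the dashed line marks the 11 arrays needed to be called expressed. All members but Chat reach 15, most tuft cell and ionocyte probes do too, and the vesicular and choline transporters stand at 0.

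Relatives of the members that serve elsewhere in the epithelium were mostly detected as well. Of 23 such genes (other G protein subunits, phospholipases, inositol trisphosphate receptors and Trpm4), 21 were expressed, through 34 of 37 probes, beside 65.1% of all probes. Trpm4, the closest relative of Trpm5, ran from 3.33 to 4.12. Of 34 tested probes, 0 passed by sex or nostril and 2 passed 1% between rats: 1 of the 2 Gnao probes (A_44_P489590, rat means 3.53 to 4.08, limma adjusted p = 0.0038) and Gng10 (rat means 4.71 to 5.20, limma adjusted p = 0.0036). Neither passed in the fit with slide as a block, which compares only rats of a shared slide (limma adjusted p = 0.47 and 0.74).

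As a check of the tissue, the probes listed for mature olfactory neurons (11 of 11) and for sustentacular cells (4 of 4) were expressed, and of 7 probes for ciliated respiratory cells 3 were. Over the whole array 65.1% of probes were expressed. The summed level of the red blood cell probes called expressed ran from 59.2 to 1416 times the array median. Hbb and Alas2 passed 1% between rats. Neither passed in the fit with slide as a block, which compares only rats of a shared slide (limma adjusted p = 0.078 and 0.053). By rat this sum was 743, 206, 884 and 1414 in males 1, 2, 5 and 6, and 114, 845, 103 and 206 in females 3, 4, 7 and 8. Male 6 had the highest sum, Ascl3 and Trpm5, but female 4, also high in this sum, had the lowest Ascl3, and male 5 was next to the lowest in Trpm5. Its part in the members' levels was not tested.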

How the data were processed

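The authors scanned 15 single-colour Agilent rat arrays and extracted them with Agilent Feature Extraction 9.5.1.1, and the deposited intensity per spot is its background-subtracted signal. Their deposited ratio table holds each signal over its array's median and then over the probe's median across arrays (within 2% of the same computed here for 100% of values compared) and served as an alternative. Here, spots marked as uneven or outlying were left out (61 to 175 per array), spots of a probe averaged, signals divided by the array median, floored at 0.1 and put on a log2 scale (floor -3.32). Tests used limma 3.58.1 in R 4.3.3 on the 27626 probes well above background on at least 7 arrays, with Benjamini-Hochberg adjustment at 1%: sex over the means of 8 rats (27625 probes with a value in each), and nostril, nostril by sex, and rat on arrays (27574 without gaps), with rat as a block for the nostrils. Adjusted p-values come from these fits over all probes. A rat with both nostrils counts as 1 replicate. The number of arrays limits the precision. Pairs used exact permutation. The fits were tested on simulated data. Named genes are all members, list genes that passed 1%, otherwise at most 4 per list, and the 3 most alike probes, of which 1 is not reported here. Members and lists were chosen with earlier results of these data known.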

Additional observations from a re-analysis of the deposited data

How the results depend on the processing

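The number of member probes past 1% stayed at 0 by sex, nostril, rat and interaction under every alternative run: scaling to the 75th percentile, normexp background, a floor of 0.01, detection on at least 11 arrays, no filter, and each rat left out (for sex also the authors' ratio table, the methods' t-test, arrays as independent, and slide as a fixed or random block; for nostril no rat block; for rat slide as a block and the 7 rats with both nostrils, the same fit as leaving out male 1). The 7 expressed probes remained 7 under other detection limits that kept the scanner's stricter criterion, and 8 with the lenient one, which takes in Chat. Without a filter Chat was tested too and did not pass. Taking arrays as independent, Plcb2 had an adjusted p of 0.047 by sex. The comparison of the sexes could not be paired, because males and females are different rats.

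Pairs of genes past 5% numbered 0 under all alternatives except with slide means taken out, where 2 passed; those points are not independent. Of 322 values of single probes under alternatives, 10 changed sign. By sex, Itpr3 (A_44_P288185) became 0.037 with slide as a fixed block, and ran from -0.087 to 0.0067 without single rats. Ascl3 became 0.22 with slide as a fixed block and 0.0064 with slide as a random block, and ran from -0.15 to 0.043 without single rats. By nostril, normexp gave -0.0081 for Plcb2 and 0.078 for Ascl3, which ran from -0.076 to 0.016 without single rats. For Ascl3 between rats, 8 of 15 alternatives had an adjusted p under 0.05, that same fit counted under both names, and 7 did not, among them those without male 2, female 4, male 6 or female 7 (0.052 to 0.076). Plcb2, the dimmest probe against background, has the widest intervals.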
